A study of Mus musculus with 4 samples.

Results

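The genes studied here encode the nuclear-encoded subunits of the respiratory chain and of the ATP synthase. They were chosen by symbol alone, as protein-coding mouse genes named *Nduf* with a letter a, b, c, s or v and a number, *Sdha* to *Sdhd*, *Uqcr*, *Cyc1*, *Cox* with a number from 4 to 8 and a letter a to c, or *Atp5*. This gave 88 gene IDs with 87 symbols, of 56748 gene IDs counted, since *Atp5po* has 2 IDs. Of the IDs, 39 belong to complex I, 4 to complex II, 9 to complex III, 17 to complex IV and 19 to complex V by name. The symbols do not follow the proteins everywhere: *Ndufa4* is named for complex I although its protein is found in complex IV, *Cox7a2l* encodes a COX7A paralogue that joins complexes III and IV, *Atp5if1* encodes an inhibitor of the ATP synthase, and the subunit genes *Cox4i1* and *Ndufab1* are missed by the rule. *Cox5b-ps* is annotated as protein-coding and is counted with complex IV, though its symbol is that of a pseudogene of *Cox5b*.

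The respiratory chain sits in the inner mitochondrial membrane. Complex I takes electrons from NADH and complex II takes them from succinate, complex III passes them from ubiquinol to cytochrome c, and complex IV passes them on to oxygen. The protons pumped on the way return through complex V, the ATP synthase, which makes ATP. Most subunits come from the nuclear genes described here, while a small number come from the mitochondrial genome, and skeletal muscle is among the tissues that depend most on this machinery.

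RNA came from C2C12 cells, an established mouse myoblast line of WT genotype, grown as undifferentiated myoblasts. In the scrambled group the cells carried a scrambled shRNA, and in the knockdown group they carried a pool of 3 shRNAs against *Hnrnpl*, the gene for the RNA-binding protein hnRNP L. Both constructs also expressed eGFP and were selected with puromycin. Each group holds 2 libraries, made from different passages of a single stable line, and each of 2 batches holds 1 library of each group. A difference between the groups therefore cannot be told apart from a difference between the stable lines, and the spread between libraries is that between passages. The question asked is whether the subunit genes of any complex differ between knockdown and scrambled.

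RNA molecules were read directly on nanopore flow cells, so that a count is a read of an RNA molecule, and the libraries held 1229424 to 1676911 reads assigned to genes. At this depth a gene with no read may still have up to 1.79 to 2.44 CPM (a gene's count scaled to a common library total), set by 3 counts per library. This limit covers counting error only. *Hnrnpl* had 358 and 656 reads in scrambled 1 and 2, against 242 and 258 in knockdown 1 and 2, and it fell by 0.78 in log2 units (standard error 0.18, adjusted p = 0.0112, edgeR quasi-likelihood test over 8670 genes with Benjamini-Hochberg adjustment). Its log2 fold change was -0.48 without scrambled 2 (adjusted p = 0.194) and -0.62 without knockdown 1 (adjusted p = 0.150). Of the myoblast markers, *Myf5*, *Des* and *Cdh15* had reads in every library, *Myod1* had a single read in all and *Pax7* had none. *Cdh15*, with 113 and 152 reads in scrambled against 25 and 14 in knockdown, fell by 2.55 in log2 units (adjusted p = 2.03e-06, edgeR), and *Des*, with 373 and 571 against 309 and 242, fell by 0.56 (adjusted p = 0.0308, edgeR). With the batch as a block the adjusted p of *Des* was 0.0526, and over 15 alternatives it was under 0.05 in 10 and reached 0.297. *Myf5* was not called (-0.16), and the part of these markers in the results was not tested. The 6 myotube markers held 3 reads in all libraries together, the 4 epithelial markers held none, the 4 leukocyte markers between 2 and 4 per library and the 3 endothelial markers a single read, while the 4 fibroblast markers held 5 to 12 per library.

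The share of the counted reads on the 88 IDs was 3.19% in scrambled 1 and 3.25% in scrambled 2, against 2.98% in knockdown 1 and 3.08% in knockdown 2. Both knockdown libraries were below both scrambled libraries. In RNA from whole cultures, fewer cells with a transcript and less of it per cell cannot be told apart. After scaling to a common library size by the TMM method (normalized counts), the summed level over all subunit genes averaged 46100.5 ± 360.1 over the scrambled libraries and 42489.9 ± 2414 over the knockdown libraries (SD, n = 2 each), a difference of -7.83%. Of the 88 IDs, 72 had enough reads to be tested, 34 in complex I, 4 in complex II, 8 in complex III, 10 in complex IV and 16 in complex V. The remaining 16 comprised 5 IDs without a read and 11 with 1 to 19 reads over the 4 libraries.

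**Figure D1:**
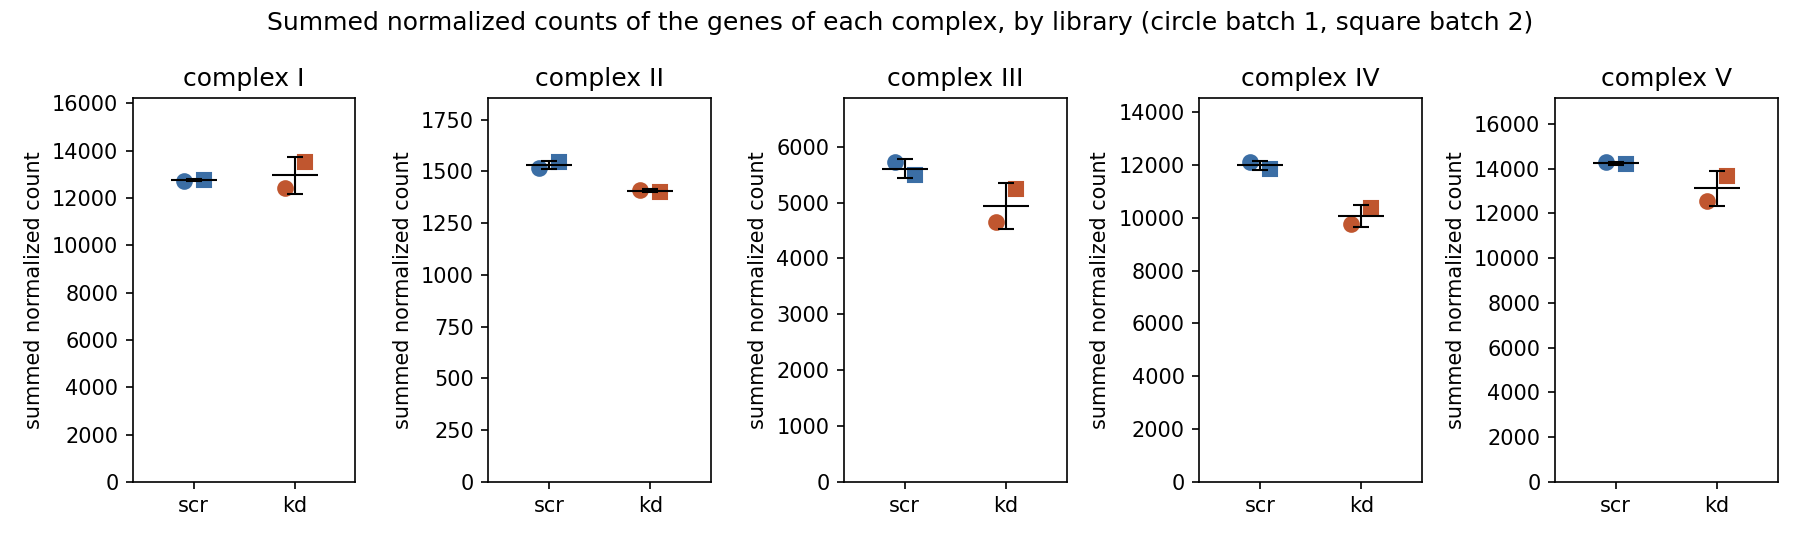
Summed normalized counts of the genes of each complex (y axis, from 0), by group (scr, scrambled; kd, knockdown). Points are libraries, horizontal lines are group means and bars are SD (n = 2). The groups overlap for complex I and lie apart for complexes II to V, with the largest percent difference in complex IV, where *Ndufa4* is counted with complex I by its symbol.

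The summed levels were then set side by side by complex. Complex I, the entry point for NADH, had sums of 12713 and 12771 in scrambled 1 and 2, against 12404 and 13518 in knockdown 1 and 2, so that the groups overlapped. These hold *Ndufa4*, with a mean of 1145 in scrambled and 1424 in knockdown, whose protein is found in complex IV. The sums of complexes I and IV thus depend on where it is counted. Complex IV, the oxygen-reducing complex, had sums of 12106 and 11847 in scrambled against 9773 and 10372 in knockdown, a difference of -15.9% between the means. Complex III had 5726 and 5489 in scrambled against 4644 and 5236 in knockdown, a difference of -11.9%. For complex V the sums were 14294 and 14193 in scrambled against 12551 and 13669 in knockdown, a difference of -7.96%. Complex II had 1516 and 1545 in scrambled against 1411 and 1401 in knockdown, a difference of -8.15%. In complexes II to V both knockdown sums lay below both scrambled sums, and single genes weighed on this. The mean of *Sdhd* went from 488 in scrambled to 339 in knockdown, a larger drop than that of the complex II sum (1531 to 1406). For *Atp5f1a* it went from 1633 to 1086, beside 14243 to 13110 for the complex V sum. The sums therefore do not show that the genes of a complex fell together. With 2 libraries a group the exact permutation p is never below 0.333, so these sums are a description, in which genes with high counts, such as *Cox8a* in complex IV, weigh most.

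By gene, 5 of the 72 tested subunit genes fell in knockdown at an adjusted p under 0.05 and none rose. The called genes were *Ndufa2* of complex I, *Sdhd* of complex II, *Uqcrc1* of complex III, *Cox7a2* of complex IV and *Atp5f1a* of complex V, 1 in each complex. They make up 6.94% of the subunit genes tested, against 3.44% of all 8670 genes tested that were called lower, and 2.51% of all genes were called higher. At an unadjusted p under 0.05 the same edgeR test had 12 subunit genes lower and 7 higher, or 26.4% of those tested against 21.8% of all genes. The DESeq2 Wald test with local fit called 6 lower and 0 higher at an adjusted p under 0.05. The share of all genes called in the DESeq2 fit was not computed, so this count cannot be set against the edgeR shares. Under the thresholds of the authors, which also set a minimum of 0.5 for the size of the log2 fold change and of 10 for the mean normalized count, 4 subunit genes were lower, since *Cox7a2* missed the fold change, and 3.22% of all genes met these. In the DESeq2 Wald test with local fit 5 subunit genes met the thresholds, *Cox7a2* included (log2 fold change -0.50, adjusted p = 0.0189), and the 3.22% from edgeR is not a share for that fit. In normalized counts, both knockdown libraries lay below both scrambled libraries for 23 of the 72 genes (31.9%, against 26% of all genes tested) and above them for 15 (20.8%, against 26.4%). Leaving out a single library left 2 calls without scrambled 1 or without knockdown 1, 1 without scrambled 2 and 3 without knockdown 2. *Uqcrc1* lost its call only without knockdown 2 (adjusted p = 0.0547) and *Atp5f1a* only without scrambled 2 (adjusted p = 0.0662), while *Ndufa2* and *Cox7a2* kept theirs only without knockdown 2 and *Sdhd* in none of the 4 fits (adjusted p = 0.0663 to 0.159, edgeR).

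**Figure D2:**
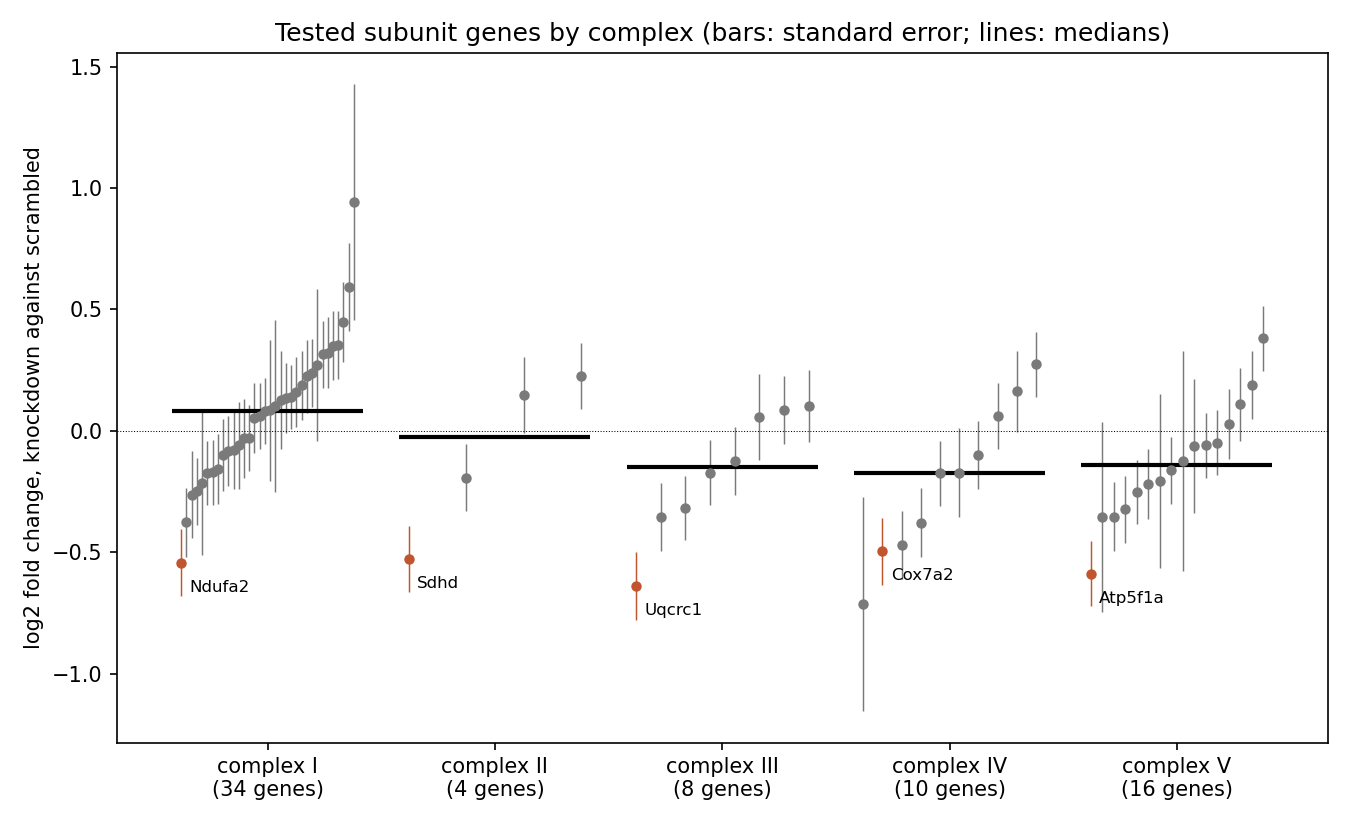
Log2 fold change of each of the 72 tested subunit genes (y axis, knockdown against scrambled, edgeR), sorted within its complex. Bars are standard errors, horizontal lines are the medians of the complexes, and the 5 genes with an adjusted p under 0.05 are named; each complex holds 1 of them and genes on both sides of 0.

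The median log2 fold change over the 72 genes was -0.06, with 40 genes lower and 32 higher, beside -0.0006 over all genes tested. It was 0.08 in complex I, -0.02 in complex II, -0.15 in complex III, -0.17 in complex IV and -0.14 in complex V. The 10 tested genes of complex IV include *Cox5b-ps* (-0.17) and *Cox7a2l* (0.06), and its 8 tested ubiquitous subunit genes alone had a median of -0.28. These medians were not stable: leaving out a library gave -0.0053 to 0.14 in complex I, -0.046 to -0.0098 in complex II, -0.26 to -0.045 in complex III and -0.25 to -0.047 in complex V, and removing the length trend took complex IV to -0.056 and complex III to -0.07. Complex I had 14 genes lower and 20 higher, complex II had 2 and 2, complex III 5 and 3, complex IV 7 and 3, and complex V 12 and 4. Within batch 1 the medians were -0.06, -0.03, -0.25, -0.22 and -0.20 for complexes I to V, and within batch 2 they were 0.12, -0.07, -0.05, -0.16 and -0.05. The median over all 72 genes was -0.14 in batch 1 and 0.06 in batch 2, so its sign differed between the batches, and 48 of the 72 genes had the same sign in both. The medians carry no test, and the differences between complexes were not tested.

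Complex I builds its matrix arm from an N module, which oxidises NADH, and a Q module, which reduces ubiquinone, and its proton pumps lie in a membrane arm. All 10 N module genes were tested. *Ndufa2*, an accessory subunit of the N module (chromosome 18, ENSMUSG00000014294.5), had normalized counts of 752 and 753 in scrambled 1 and 2, against 470.2 and 564 in knockdown 1 and 2. Both knockdown libraries were well below scrambled, which varied little, and *Ndufa2* fell by 0.54 in log2 units (standard error 0.14, adjusted p = 0.0268, edgeR). *Ndufv1*, the flavoprotein that binds NADH, had 535 and 627 in scrambled against 467 and 428 in knockdown (log2 fold change -0.38, adjusted p = 0.119, edgeR). *Ndufs1*, the large iron-sulfur subunit of the same module, lay the other way, at 73.3 and 67.3 in scrambled against 111 and 101 in knockdown. Its groups did not overlap, and its log2 fold change of 0.59 (standard error 0.18) had an adjusted p of 0.0597 from edgeR. Of the other N module genes, *Ndufs4*, *Ndufs6*, *Ndufa12*, *Ndufv2* and *Ndufv3* had both knockdown libraries above scrambled with log2 fold changes of 0.14 to 0.35, and *Ndufa6* had both below at -0.17, and none of these was called.

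The 6 Q module genes lay between -0.17 for *Ndufs8* and 0.94 for *Ndufa9*, with 4 lower and 2 higher. *Ndufa9* had only 13 and 7 reads in scrambled against 25 and 9 in knockdown, and its groups overlapped. In the membrane arm 17 of 20 accessory subunit genes were tested, 7 lower and 10 higher, with a median log2 fold change of 0.06. *Ndufb3* had the lowest unadjusted p among these, with 262 and 315 normalized counts in scrambled against 332 and 459 in knockdown (log2 fold change 0.45, standard error 0.16, adjusted p = 0.113, edgeR; 0.20 to 0.67 with a library left out). *Ndufa10* followed at 287 and 286 in scrambled against 354 and 377 in knockdown (0.35, adjusted p = 0.147, edgeR). *Ndufa4* had the highest level among the genes named for complex I, at 1209 and 1081 in scrambled against 1328 and 1520.5 in knockdown (0.31, adjusted p = 0.193, edgeR). In each of these genes both knockdown libraries lay above both scrambled libraries.

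**Figure D3:**
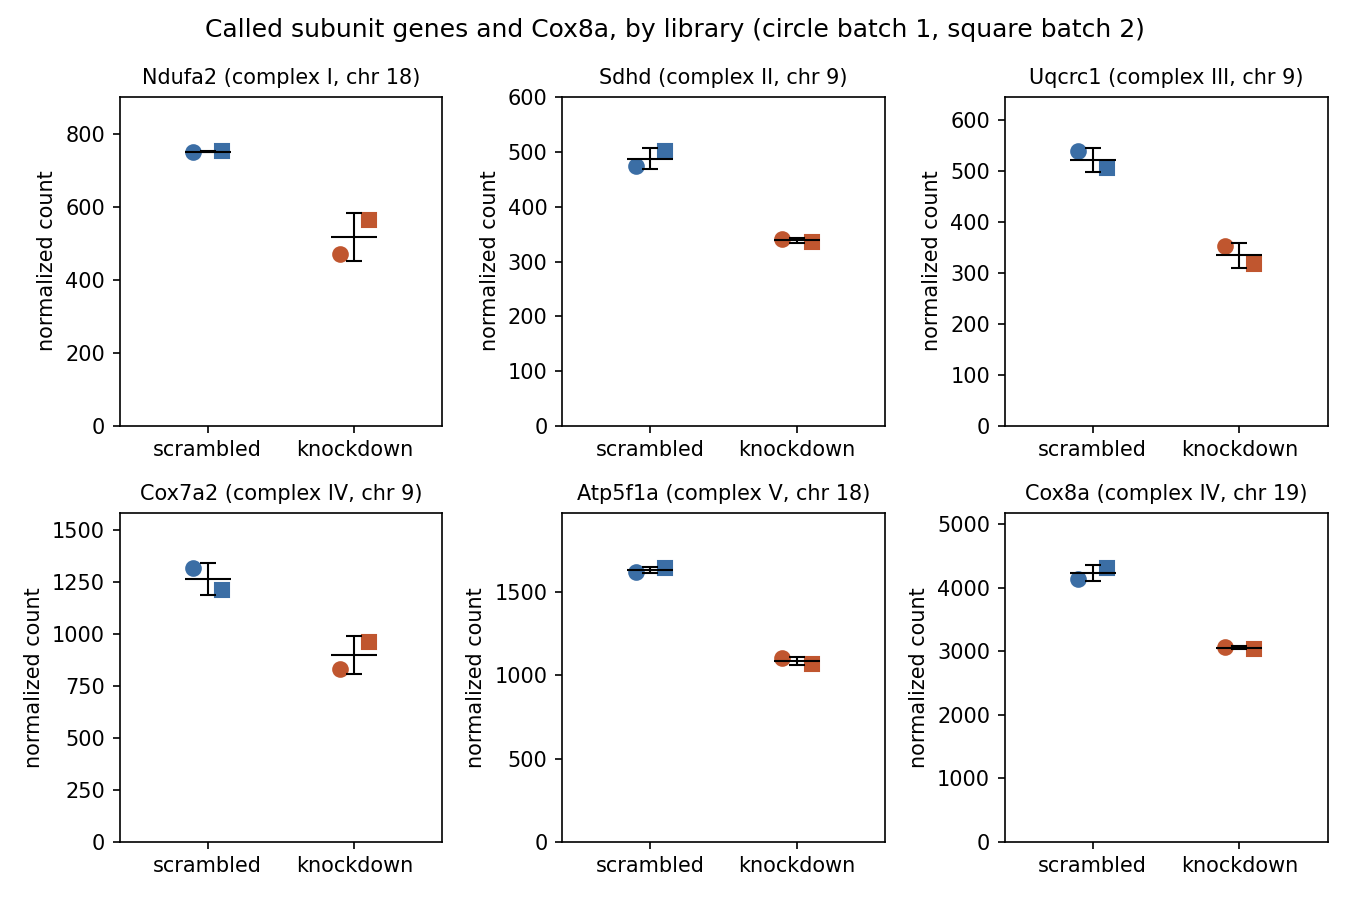
Normalized counts per library (y axis, from 0) of the 5 called subunit genes and of *Cox8a*, which narrowly missed the threshold. Points are libraries, lines are group means and bars are SD (n = 2); in each panel both knockdown libraries lie below both scrambled libraries.

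Complex II, succinate dehydrogenase, also belongs to the tricarboxylic acid cycle and has no mitochondrially encoded subunit. *Sdhd*, a membrane anchor subunit (ENSMUSG00000000171.6, GRCm39 chr9:50507642-50515195), had 474 and 501 normalized counts in scrambled 1 and 2, against 342 and 335 in knockdown 1 and 2. The libraries of a group lay close together, and *Sdhd* fell by 0.53 in log2 units (standard error 0.14, adjusted p = 0.0282, edgeR), while with the batch as a block the adjusted p was 0.055. The other anchor, *Sdhc*, had 362 and 372 in scrambled against 435 and 423 in knockdown, higher in both knockdown libraries and not called (0.23, adjusted p = 0.353, edgeR). Of the catalytic subunits, the iron-sulfur protein gene *Sdhb* had 493 and 456 in scrambled against 394 and 437 in knockdown (-0.19, adjusted p = 0.449), and the flavoprotein gene *Sdha* had 186 and 216 in scrambled against 240.1 and 206 in knockdown, with overlapping groups.

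Complex III passes electrons through cytochrome c1 and the Rieske iron-sulfur protein. *Uqcrc1*, a core protein of the complex (ENSMUSG00000025651.15, GRCm39 chr9:108765701-108778710), had 538 and 505 normalized counts in scrambled 1 and 2, against 352 and 317 in knockdown 1 and 2. It fell by 0.64 in log2 units (standard error 0.14, adjusted p = 0.00918, edgeR), the largest fall among the called subunit genes, and by 0.61 and 0.67 within batch 1 and batch 2. Its partner core protein gene *Uqcrc2* had 7 and 5 reads in scrambled against 2 and 1 in knockdown and was not tested. *Cyc1*, the gene of cytochrome c1, had 968 and 933 in scrambled and 763 in each knockdown library (-0.32, standard error 0.13, adjusted p = 0.168, edgeR). The small subunit gene *Uqcrh* had 797 and 751 in scrambled against 551 and 660.3 in knockdown (-0.35, adjusted p = 0.141, edgeR). For both genes knockdown lay below scrambled in every library. *Uqcrfs1*, the Rieske protein gene, overlapped between groups at 451 and 437 against 440.4 and 504. *Uqcrq*, a small subunit with the highest counts of the complex, had 1222 and 1214 in scrambled against 1017 and 1147 in knockdown (-0.17, adjusted p = 0.499, edgeR).

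Complex IV reduces oxygen, and several of its small subunits exist as a ubiquitous form and a form of heart and skeletal muscle. *Cox7a2*, the ubiquitous COX7A gene (ENSMUSG00000032330.8, GRCm39 chr9:79653049-79667162), had 1318 and 1209 normalized counts in scrambled 1 and 2, against 832 and 961 in knockdown 1 and 2. It fell by 0.50 in log2 units (standard error 0.14, adjusted p = 0.0399, edgeR), while with the batch as a block the adjusted p was 0.0798. *Cox8a*, the ubiquitous COX8 gene on chromosome 19, had the highest level of all subunit genes, at 4552 CPM per kilobase of transcript. Its normalized counts were 4143 and 4317 in scrambled against 3072 and 3039 in knockdown, 0.722-fold in the fit (log2 fold change -0.47, standard error 0.14, adjusted p = 0.0507, edgeR). Over 15 alternative settings the adjusted p of *Cox8a* lay between 0.000904 and 0.444 and was under 0.05 in 6. *Cox7b*, on chromosome X, had 1794 and 1599 in scrambled against 1203 and 1409 in knockdown (-0.38, adjusted p = 0.121, edgeR). *Cox6a1* lay the other way, at 1228 and 1188 in scrambled against 1451 and 1471 in knockdown (0.27, standard error 0.13, adjusted p = 0.238, edgeR). *Cox6c* overlapped between groups, and *Cox6b1* had both knockdown libraries lower (-0.17, adjusted p = 0.482, edgeR).

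The muscle and testis forms were near or at 0 in these undifferentiated cells. *Cox6a2*, the muscle form of COX6A, had 4 and 12 reads in scrambled against 0 and 2 in knockdown, and *Cox7a1*, the muscle form of COX7A, had 2 and 7 in scrambled against 3 and 4 in knockdown. *Cox8b*, the muscle form of COX8, had no read in any library, which allows up to 1.79 to 2.44 CPM per library. The testis forms *Cox6b2* and *Cox8c* had none and *Cox7b2* had a single read. *Ndufa4l2*, the paralogue of *Ndufa4*, also had a single read. The ubiquitous partners had raw counts of 1173 to 1456 for *Cox6a1*, 822 to 1437 for *Cox7a2* and 2600 to 5132 for *Cox8a*. The 6 tissue forms of complex IV were all left out of the test for want of reads, so no difference between groups was detectable for them at this depth.

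Complex V has a catalytic F1 head, a membrane ring of c subunits that turns as protons pass, and a peripheral stalk that holds the head in place. *Atp5f1a*, the alpha subunit of the head (chromosome 18, ENSMUSG00000025428.16), had 1619 and 1646 normalized counts in scrambled 1 and 2, against 1104 and 1068 in knockdown 1 and 2. The libraries of each group nearly coincided, and *Atp5f1a* fell by 0.59 in log2 units (standard error 0.13, adjusted p = 0.0123, edgeR), by 0.55 and 0.62 within batch 1 and batch 2. *Atp5f1b*, the beta subunit that pairs with it in the head and carries the catalytic sites, had 2455 and 2475 in scrambled against 2335 and 2396 in knockdown (-0.06, standard error 0.14, adjusted p = 0.844, edgeR). The remaining head genes lay at -0.35 for *Atp5f1e* (adjusted p = 0.147), -0.25 for *Atp5f1c* (adjusted p = 0.283) and 0.03 for *Atp5f1d* (adjusted p = 0.936), all from edgeR.

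The c subunit is made from the genes *Atp5mc1*, *Atp5mc2* and *Atp5mc3*, which encode the same mature protein. *Atp5mc3* had 2310 and 2392 normalized counts in scrambled against 1977 and 2229 in knockdown, *Atp5mc1* had 461 and 530.0 in scrambled against 389 and 465 in knockdown, and *Atp5mc2* had 29.3 and 17.7 in scrambled against 17.9 and 22.2 in knockdown. Their log2 fold changes were -0.16, -0.22 and -0.21 with adjusted p of 0.535, 0.405 and 0.789 from edgeR, and the last changed sign without scrambled 1. In the peripheral stalk, *Atp5pf*, the gene of coupling factor 6, had 762 and 774 in scrambled against 972 and 1028 in knockdown, and its log2 fold change of 0.38 (standard error 0.13) had an adjusted p of 0.097 from edgeR. Both knockdown libraries lay above scrambled and close to each other. *Atp5mj*, a small membrane subunit, had 675 and 617 in scrambled against 485 and 548 in knockdown (-0.32, adjusted p = 0.176, edgeR).

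The called genes share their chromosomes, which the choice by symbol did not use. *Sdhd*, *Uqcrc1* and *Cox7a2* lie on chromosome 9, *Ndufa2* and *Atp5f1a* lie on chromosome 18, and these are all the subunit genes tested on either chromosome. Over the other genes tested there, the median log2 fold change was -0.36 on chromosome 9 (489 genes, 84.3% of them lower) and -0.28 on chromosome 18 (224 genes, 78.6% lower), and 8.59% and 6.70% were called lower, against 2.99% of the 7885 other genes tested elsewhere. This was not particular to these chromosomes: 11.7% of other genes were called lower on chromosome 14 (median -0.36), which holds no tested subunit gene, and 10.6% on chromosome 19 (median -0.23), where edgeR called none of 4 tested subunit genes and the DESeq2 Wald test called *Cox8a* (adjusted p = 0.00176 with local fit and 0.0424 with parametric fit). Among other genes on both chromosomes whose mean normalized count was at least that of the lowest called subunit gene (413), 8 of 32 (25%) were called lower, against 29 of 480 (6.04%) at the same level on the remaining chromosomes. On the remaining chromosomes, 35 of 67 subunit genes were lower and 32 higher, with a median of -0.03. edgeR called none of them, and *Cox8a* was the only one called by the DESeq2 fits. At an unadjusted p under 0.05 edgeR had 7 of the 67 lower and 7 higher, and over all genes tested the share in either direction was 21.8%.

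**Figure D4:**
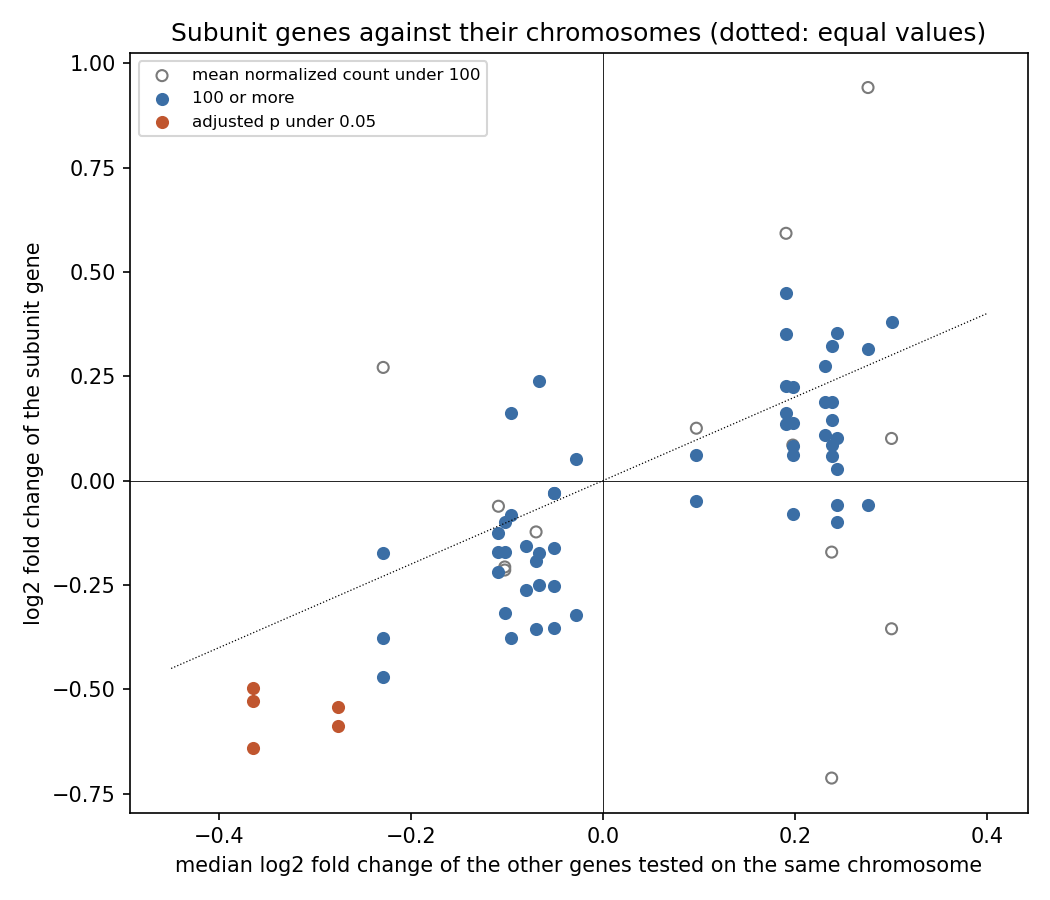
Log2 fold change of each of the 72 tested subunit genes (y axis) against the median log2 fold change of the other genes tested on its chromosome (x axis). Open points have a mean normalized count under 100, filled points 100 or more, and the 5 called genes, in a separate colour, sit at chromosome medians of -0.36 and -0.28; the dotted line marks equal values.

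The other subunit genes were set against their chromosomes in the same way. The median of the other genes on a chromosome ranged, over the autosomes and X, from -0.36 on chromosome 9 to 0.30 on chromosome 16, and 60 of the 72 subunit genes (83.3%) had the sign of their chromosome's median, against 69.0% of the 8579 other genes. At a mean normalized count of 100 or more the shares were 86.4% of 59 subunit genes and 75.8% of 2505 other genes. More genes share the sign of a median than not by its construction, and the difference between the shares was not tested. Across the 72 genes the log2 fold change followed the chromosome median with Pearson's r of 0.64 and Spearman's rho of 0.59, and across the 59 genes with a mean normalized count of at least 100 Pearson's r was 0.83, given as a description because genes on a chromosome and in the same libraries are not independent. By complex, the sign was that of the chromosome for 27 of 34 genes in complex I, 4 of 4 in complex II, 8 of 8 in complex III, 8 of 10 in complex IV and 13 of 16 in complex V. All 5 subunit genes on chromosome 2 and all 5 on chromosome 15 were lower, with chromosome medians of -0.05 and -0.10. All 6 on chromosome 1 were higher, with a chromosome median of 0.19. Opposite signs at 100 or more normalized counts reached 0.24 at most, in *Ndufa3* on chromosome 7.

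The chromosome medians were next removed from each library before the fit. None of the 72 subunit genes then had an adjusted p under 0.05 in the edgeR test, the smallest being 0.270 for *Atp5f1a*. Among all genes in this fit, 307 had an adjusted p under 0.05. At an unadjusted p under 0.05 there were 7 subunit genes. The share of all genes at an unadjusted p under 0.05 was not computed for this fit, so these 7 have no background to be set against. The log2 fold changes of the 5 genes were then -0.27 for *Ndufa2*, -0.19 for *Sdhd*, -0.31 for *Uqcrc1*, -0.17 for *Cox7a2* and -0.31 for *Atp5f1a*, all still below 0. Over the 72 genes the sign turned for 22, among them *Ndufs4*, *Ndufs8*, *Sdha*, *Uqcrfs1*, *Atp5f1d* and *Ndufv2*. The medians of complexes I to V became 0.004, -0.08, -0.12, -0.14 and -0.14, and the SD of the 72 log2 fold changes fell from 0.298 to 0.225. Since each group is a single stable line, a shift of whole chromosomes between the lines and an effect of the knockdown cannot be told apart in these libraries.

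Promoters of the called genes on chromosome 9 are given with those of subunit genes that carry a motif of a factor known to act on respiratory genes. RefSeq windows from 250 bases before to 50 bases after the start (GRCm38.p6) were matched to 68 of the 87 symbols, 13 of them through an older symbol. The motifs searched, on both strands, were CCGGAAGT for ETS factors such as GABP, GCATGCGC for NRF1 and AAGATGGC for YY1. Different motifs can share letters at their ends, GCATGCGC can overlap its own match on the other strand, and a gene was counted once for each motif. At least 1 of the motifs was in the window of 35.3% of the 68 genes, against 9.91% of all 27025 genes with a window. The NRF1 motif was in 14.7% against 3.05%, the YY1 motif in 14.7% against 3.19% and the ETS motif in 7.35% against 4.31%. The 250 bases before the start are printed for *Sdhd* (chr9:50603850-50604099, minus strand), *Uqcrc1* (chr9:108936398-108936647, plus strand) and *Cox7a2* (chr9:79759854-79760103, minus strand), and for the gene with the highest mean CPM per kilobase among those with each motif in that stretch, *Cox6a1* for NRF1 (chr5:115348959-115349208, minus strand), *Uqcrh* for ETS (chr4:116075071-116075320, minus strand) and *Atp5pf* for YY1 (chr16:84834977-84835226, minus strand), 5′ to 3′ along the gene and with motif letters in capitals.
Sdhd: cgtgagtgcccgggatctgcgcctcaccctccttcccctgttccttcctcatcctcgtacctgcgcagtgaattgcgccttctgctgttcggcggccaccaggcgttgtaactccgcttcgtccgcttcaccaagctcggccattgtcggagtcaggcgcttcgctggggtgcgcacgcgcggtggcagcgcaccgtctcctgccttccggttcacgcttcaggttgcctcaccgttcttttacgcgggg
Uqcrc1: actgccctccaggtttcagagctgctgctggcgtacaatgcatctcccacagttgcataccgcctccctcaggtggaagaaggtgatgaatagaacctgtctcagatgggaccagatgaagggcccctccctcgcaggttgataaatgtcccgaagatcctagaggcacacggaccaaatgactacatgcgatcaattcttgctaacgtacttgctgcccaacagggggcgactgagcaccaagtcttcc
Cox7a2: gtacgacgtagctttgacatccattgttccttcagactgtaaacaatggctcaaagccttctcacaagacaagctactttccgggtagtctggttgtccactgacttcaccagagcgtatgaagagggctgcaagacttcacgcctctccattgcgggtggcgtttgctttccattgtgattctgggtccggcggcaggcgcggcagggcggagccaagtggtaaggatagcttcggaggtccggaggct
Cox6a1: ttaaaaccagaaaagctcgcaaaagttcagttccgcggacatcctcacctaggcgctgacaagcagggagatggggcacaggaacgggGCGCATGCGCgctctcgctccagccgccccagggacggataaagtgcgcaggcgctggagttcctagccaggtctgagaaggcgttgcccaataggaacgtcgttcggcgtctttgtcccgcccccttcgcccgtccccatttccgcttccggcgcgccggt
Uqcrh: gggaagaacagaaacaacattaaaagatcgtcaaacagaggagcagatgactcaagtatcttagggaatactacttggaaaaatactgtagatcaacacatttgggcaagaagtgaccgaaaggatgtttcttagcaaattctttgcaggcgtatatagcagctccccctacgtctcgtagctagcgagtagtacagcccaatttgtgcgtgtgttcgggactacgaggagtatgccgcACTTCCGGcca
Atp5pf: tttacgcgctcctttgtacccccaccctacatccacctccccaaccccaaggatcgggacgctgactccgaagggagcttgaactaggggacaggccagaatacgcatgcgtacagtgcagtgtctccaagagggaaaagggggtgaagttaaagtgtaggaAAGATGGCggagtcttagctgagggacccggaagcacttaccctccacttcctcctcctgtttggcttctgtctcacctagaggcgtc

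None of the stretches of the 3 called genes holds these letters, and in *Uqcrc1* the NRF1 motif stands within the 50 bases after the start. In *Cox6a1* the motif stands on both strands, at positions -160 and -162 relative to the start, in *Uqcrh* on the other strand at -11, and in *Atp5pf* at -88. *Atp5pf* was the only subunit gene with the YY1 letters in the 250 bases before a start. The stretch before its other start (chr16:84835626-84835875, minus strand) held none of the motifs. A match is a run of letters and not a measured site, and no match says only that these letters are not in this stretch. hnRNP L itself binds CA-rich RNA. The run ACACACAC was in the canonical transcript of 4 of the 72 tested subunit genes (*Atp5po*, *Ndufa10*, *Ndufa9* and *Uqcrfs1*), or 5.56%, against 17.0% of all 8231 protein-coding transcripts tested. Subunit transcripts are short, with a median of 1140 bases against 3528, and among transcripts of up to 2000 bases the shares were 1.82% and 3.67%. None of the 5 called genes was among those with the run.

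Some subunits that most tissues need had few or no reads of their own. *Cox5a* had 1, 1, 2 and 3 reads in scrambled 1 and 2 and knockdown 1 and 2, *Ndufb6* had 1, 0, 3 and 4, *Ndufs5* had 3, 6, 4 and 6, *Atp5mg* had 5, 5, 4 and 1, and *Cox7c* had 16, 18, 13 and 5. These genes were singled out after their values were seen. *Ndufb6* has no further genomic copy by the search described next, and the pseudogene at the copy of *Cox5a* held 5 reads in all. Of the subunit genes, 17 have at least 1 further copy in the GRCm39 genome (at least 50% of the transcript at 90% identity or more), and annotated pseudogenes at these copies carried reads for 11 of them. For 5 genes the pseudogenes carried more reads than the gene. The pseudogenes of *Cox7c*, a small ubiquitous subunit of complex IV with 6 copies, held 754 and 821 reads in scrambled against 748 and 675 in knockdown. *Ndufs5-ps* held 102 and 128 in scrambled against 68 and 93 in knockdown, far more than *Ndufs5*, an accessory subunit of complex I. The pseudogenes of *Atp5mg* held 218 and 169 in scrambled against 80 and 92 in knockdown. Those of *Atp5mc2* held 125, 142, 108 and 113, and that of *Atp5pd* 220, 212, 136 and 139.

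**Figure D5:**
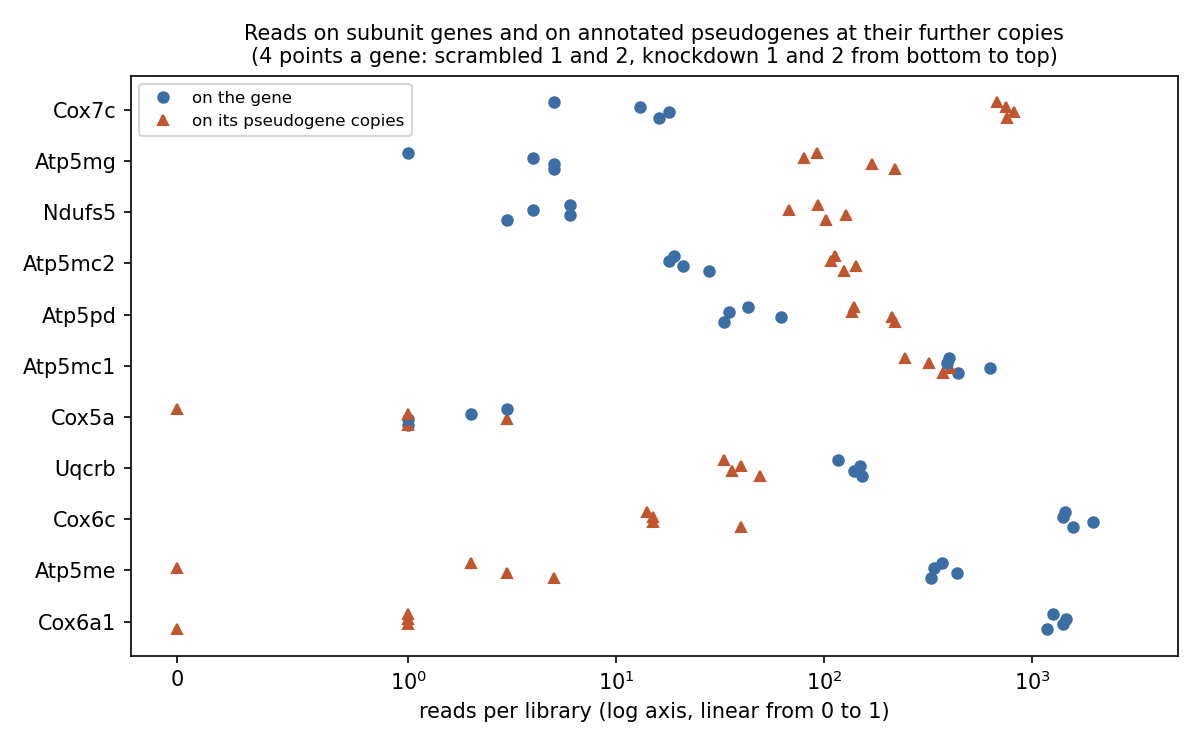
Reads per library (x axis, log scale above 1) on 11 subunit genes (circles) and on the annotated pseudogenes at their further genomic copies (triangles), genes sorted by the ratio of the summed reads. For *Cox7c*, *Atp5mg*, *Ndufs5*, *Atp5mc2* and *Atp5pd* the pseudogenes lie above the gene in every library.

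Adding the pseudogene reads to the gene's own gave normalized sums for *Cox7c* of 806 and 706 in scrambled against 758 and 795 in knockdown, so that the groups overlapped where the gene alone had a log2 fold change of -0.71 (standard error 0.44). For *Atp5mg* the sums were 233 and 146 in scrambled against 83.7 and 109 in knockdown, lower in both knockdown libraries. These sums carry no test, and whether reads of the gene were placed on its copies was not tested. Canonical transcripts without sequencing errors, mapped with minimap2, were placed at a mapping quality of 56 or more for all 88 IDs. Counts of the 17 genes with copies are uncertain on this ground, and so are those of the 6 genes whose exons overlap another gene on the same strand (*Ndufa13*, *Ndufb2*, *Ndufb8*, *Ndufb9* and both IDs of *Atp5po*) and of the 39 that overlap on the other strand, since the strand setting of the counting is not given in the sources used here. Of the called genes, *Ndufa2*, *Uqcrc1* and *Atp5f1a* overlap a gene on the other strand, and *Sdhd* and *Cox7a2* overlap none.

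The mitochondrial genome encodes further subunits of complexes I, III, IV and V. Of these 13 genes 7 were tested, and 5 rose at an adjusted p under 0.05 (edgeR): *mt-Cytb* of complex III (log2 fold change 1.03, adjusted p = 0.000708), *mt-Nd4* (0.85, adjusted p = 0.00458), *mt-Nd2* (0.74, adjusted p = 0.0099), *mt-Nd1* (0.60, adjusted p = 0.0229) and *mt-Nd5* (0.49, adjusted p = 0.0391), the last 4 of complex I. Over all genes tested, edgeR called 2.51% higher and 3.44% lower. *mt-Cytb* had 9797 and 10175 reads in scrambled against 20590 and 15324 in knockdown. *mt-Nd6*, on the other strand of the mitochondrial genome, fell by 0.67 (adjusted p = 0.0440, edgeR), and the complex IV gene *mt-Co1* was not called (0.22, adjusted p = 0.383). With the batch as a block *mt-Nd1* and *mt-Nd5* had adjusted p of 0.0626 and 0.0749, and the DESeq2 Wald test with local fit left *mt-Nd2* (0.146), *mt-Nd4* (0.0801) and *mt-Nd6* (0.265) without a call. Leaving out a single library took the adjusted p (edgeR) of *mt-Nd1*, *mt-Nd4* and *mt-Nd5* to 0.135, 0.0795 and 0.274 without scrambled 2, that of *mt-Nd2* to 0.0995 without knockdown 1 and that of *mt-Nd6* to 0.253 without scrambled 2, while *mt-Cytb* stayed under 0.05. *mt-Nd3*, *mt-Nd4l*, *mt-Co2*, *mt-Co3*, *mt-Atp6* and *mt-Atp8* were listed at 0 to 4 reads per library although every cell with mitochondria uses them. All mitochondrially encoded genes together made up 5.73% and 5.42% of reads in scrambled against 7.30% and 6.70% in knockdown. The difference between nuclear and mitochondrial subunits was not tested.

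Genes that build and regulate the complexes were read against the same shares of all genes tested, 3.44% called lower and 2.51% called higher. Among 49 assembly factors, 39 were tested, 23 lower and 16 higher, with a median of -0.02 and 1 called. *Coa3*, which takes part in complex IV assembly, had 73 and 129 reads in scrambled against 39 and 31 in knockdown and fell by 1.31 in log2 units (standard error 0.23, adjusted p = 0.00196, edgeR), on chromosome 11 with a median of -0.11. Its adjusted p was under 0.05 in 14 of 15 alternatives and 0.0546 with DESeq2's parametric fit. Of 13 regulators of mitochondrial biogenesis 9 were tested, 1 lower and 8 higher, and none was called. Among these, *Polrmt*, the mitochondrial RNA polymerase, had 18 and 30 reads in scrambled against 39 and 34 in knockdown (0.81, adjusted p = 0.112, edgeR), and *Nrf1* (0.12), *Gabpa* (0.33) and *Tfam* (0.30) had adjusted p of 0.822, 0.359 and 0.330. *Ppargc1a*, a coactivator of mitochondrial genes, had 0 and 4 reads in scrambled against 1 and 0 in knockdown. Among 14 enzymes of the tricarboxylic acid cycle 13 were tested, with 1 called in each direction, counts too small to set against those shares: *Idh3a*, also on chromosome 9, fell by 0.62 (adjusted p = 0.0127) and *Suclg2* on chromosome 6 rose by 1.07 (adjusted p = 0.00656), both from edgeR. With chromosome medians removed their adjusted p were 0.358 and 0.0568, without knockdown 1 they were 0.121 and 0.0803, and with DESeq2's parametric fit they were 0.0807 and 0.215. The carriers *Slc25a4* (-0.39, adjusted p = 0.0979), *Slc25a5* (-0.12) and *Slc25a3* (0.08) carry adenine nucleotides and phosphate across the membrane and were not called by edgeR, while *Slc25a4* had an adjusted p of 0.0432 in the DESeq2 Wald test with local fit and was under 0.05 in 2 of 15 alternatives. Subunit genes outside the symbol rule were not called either, *Cox4i1* having 254 and 261 reads in scrambled against 231 and 160 in knockdown (-0.21, adjusted p = 0.483, edgeR).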

How the data were processed

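RNA of 4 libraries was sequenced directly on nanopore flow cells. Per the labels and the submitters' processing notes, the authors called bases with guppy, mapped reads to GRCm39 with minimap2 2.17, sorted them with SAMtools and counted reads per gene with HTSeq 0.9.1, and the deposited values are raw counts of reads per gene ID; the annotation release and the strand setting are not given in the sources used here. Entries for unassigned reads (ambiguous 16.0% to 16.5%, low mapping quality 22.7% to 23.8% of all reads) were left out of library sizes and tests. Symbols and positions came from a GENCODE annotation of GRCm39, and gene IDs absent from it kept no symbol.

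Counts were scaled by TMM and tested with edgeR 4.0.16 (quasi-likelihood test, limma 3.58.1, R 4.3.3) after filterByExpr over 8670 genes with Benjamini-Hochberg adjustment. Normalized counts are scaled to the mean library size. Libraries with the same number were taken as a batch. Their titles give only that number, and the paper's supplement names them with the same date. Between scrambled 1 and knockdown 1 the deviations from the group mean had a correlation of -0.0139 over 7705 genes. Alternatives comprised other scaling factors and filters, a replicate block, removal of chromosome medians or of a trend with transcript length, DESeq2 1.42.0 and leaving out each library. The code was tested on simulated data. Copies of a gene were found with minimap2 2.31-r1302. Named genes were *Hnrnpl*, all called subunit genes, the 3 of lowest p and the 2 of highest mean CPM in each complex, isoform pairs, genes without a read and called genes of the pathway lists. Other genes were named after their values were seen. The subunit genes and lists were chosen with earlier results of these data known.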

Additional observations from a re-analysis of the deposited data

How the results depend on the processing

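The count of 5 subunit genes lower became 3 with a replicate block (pairing by batch), 3 with the length trend removed, 3 with DESeq2's parametric fit, 2 when genes overlapping another gene were left out (41 tested), 0 with chromosome medians removed, and 1 to 3 with a library left out; fewer samples or genes enter the last and the overlap setting, and otherwise the cause was not tested. The block changed no other call among subunit genes. The count higher became 1 (*Ndufa4*) with the length trend removed. Under the authors' thresholds the count of 4 became 3 with the replicate block, 0 with chromosome medians removed, 2 with the length trend removed, 2 with the parametric fit, 1 without overlapping genes and 1 to 3 with a library left out. The median of complex I was 0.0037 with chromosome medians removed and -0.0053 to 0.14 with a library left out. That of complex II was -0.0017 with upper quartile factors, -0.080 with chromosome medians removed, -0.19 without overlapping genes and -0.046 to -0.0098 with a library left out. Complex III ranged from -0.26 to -0.045 and complex V from -0.25 to -0.047 with a library left out. Complex IV was -0.14 with chromosome medians removed, -0.056 with the length trend removed and -0.21 to -0.16 with a library left out. The median over all subunit genes ranged from -0.11 to 0.025. *Hnrnpl* ranged from -1.03 to -0.48, and DESeq2's parametric fit gave -0.78 (adjusted p = 0.0567). Over the 72 genes the sign turned for 22 with chromosome medians removed and for 3 with the length trend removed. Among the genes named by rule, signs turned for *Atp5mc2* without scrambled 1 (0.17; -0.56 to 0.17 with a library left out), *Cox6c* with chromosome medians removed (0.0013), the length trend removed (0.025) or knockdown 1 left out (0.023; -0.23 to 0.023 with a library left out), and *Ndufv2* with chromosome medians removed (-0.044). Depth limits genes with few reads, such as the tissue forms of complex IV.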
